A study of Ovis aries with 20 samples.

Results

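Hexokinase 1 (HK1), glyceraldehyde-3-phosphate dehydrogenase (GAPDH) and liver glycogen phosphorylase (PYGL) were followed in the heart of newborn lambs. Every array probe whose name or description in the scanner files gives one of these 3 genes was taken, which came to 8 of 15008 probes: 1 for HK1, 5 for GAPDH and 2 for PYGL. For each gene the probe with the highest mean signal over all arrays was used as its lead probe. Of the 15008 probes, 1403 could be given a gene symbol, for 865 genes.

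The lambs were singletons whose mothers had received a continuous infusion from about gestation day 115 until birth, either cortisol at 1 mg/kg per day or vehicle. Cortisol is the main adrenal glucocorticoid. There were 5 control lambs (vehicle) and 5 cortisol lambs, taken between 10 and 480 min after birth, and the time of each lamb is not among the labels. Total RNA came from the free wall of the left ventricle (LV) and from the interventricular septum of every lamb, on 1 single-colour sheep oligonucleotide array each, which gave 5 arrays for each treatment in each wall. All samples, control and cortisol, carry the word telemetry in their titles, and the labels give no strain. The series asks how cortisol in utero affects the newborn heart. Arrays of the LV and the septum with the same treatment and number were taken as 1 lamb.

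Hexokinase adds a phosphate to glucose as it enters the cell, GAPDH catalyses the step of glycolysis that yields NADH, and glycogen phosphorylase releases glucose units from stored glycogen. HK1 is the ubiquitous hexokinase. Phosphorylase has separate muscle (PYGM), brain (PYGB) and liver (PYGL) forms. The fetal heart burns mainly glucose and lactate, holds large glycogen stores, and turns to fatty acids after birth.

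The probe sequences show that the GAPDH probes are not of one kind, and this bears on how far their values can be read together. The lead GAPDH probe and one EST-derived GAPDH probe are printed first, and capitals mark the bases that the former shares with the reverse complement of the latter.
GAPDH A_70_P016402 (lead): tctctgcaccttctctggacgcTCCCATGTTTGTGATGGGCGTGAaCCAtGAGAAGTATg
GAPDH A_70_P041486, reverse complement: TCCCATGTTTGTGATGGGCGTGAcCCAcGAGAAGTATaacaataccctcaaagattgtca
GAPDH A_70_P041486, as on the array: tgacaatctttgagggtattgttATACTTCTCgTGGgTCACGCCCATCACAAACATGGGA
GAPDH A_70_P024456: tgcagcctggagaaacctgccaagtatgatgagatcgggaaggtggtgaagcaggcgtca
HK1 A_70_P045126 (lead): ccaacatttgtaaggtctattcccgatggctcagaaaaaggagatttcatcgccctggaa
PYGL A_70_P030421 (lead), first 30 bases: gtgagtcatgaaacccttggaacctattat
PYGL A_70_P030422, first 30 bases: ttctttatgaaccacaacaaaagggagaaa

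The lead GAPDH probe and A_70_P016401 share 59 of their 60 bases. A_70_P041486 and A_70_P041487 share 57 bases. The lead probe and A_70_P041486 overlap by 38 bases, of which 35 are identical, but on opposite strands. The labelling kit copies messenger RNA into labelled cRNA of 1 strand, so probes on opposite strands cannot both match it. The strand of the EST record was not tested, nor whether A_70_P041486 and A_70_P041487 measure GAPDH messenger RNA. A_70_P024456 shares no run of 20 or more bases with the other GAPDH probes, and the 2 PYGL probes do not overlap. No other probe on the array shared a run of 20 bases with any of the 8. The files name no genome build, so no chromosomal positions are given. On the transcript record named by the files, the PYGL probes start at bases 3107 (lead) and 3006.

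Levels below are log2 of the processed spot intensity relative to the 75th percentile of the same array, so that 0 is the brightness of a probe at that percentile. Probes differ in brightness for the same amount of RNA, and levels are compared only between arrays for 1 probe. Of the 8 probes, 7 were well above background on all 20 arrays. The other, A_70_P030422 of PYGL, was well above background on 18, the exceptions being LV control 1 and LV control 3. None was saturated, and all 8 passed the filter on dim probes in each comparison. In the authors' deposited value table A_70_P030422 has 0 septum values, so that alternative gave it none in the septum.

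The 75th percentile itself ranged from 98.4 to 440 intensity units and 57.9% to 72.1% of spots were well above background per array. By slide, 6 septum arrays shared slide 1 and 6 LV arrays shared slide 3, from 3 control and 3 cortisol lambs in each case. Both walls met on slide 2, with 3 LV and 4 septum arrays, while cortisol 4 had its LV array alone on slide 4. The cardiomyocyte markers MYH7, TPM1 and MB were well above background on all 20 arrays. All 3 had positive cortisol differences in each wall, from 0.06 to 0.63 in the LV and 0.26 to 0.39 in the septum. Of 4 endothelial markers, 4 had negative differences in the LV and 2 in the septum. No marker of either list passed, and the part of these cells in the members' differences was not tested. Of the skeletal muscle markers, the adult fast myosins MYH1 and MYH2 were above background on 1 and 2 arrays. TNNC2, the fast skeletal form of troponin C, was above it on all 20, between -2.27 and 2.45. Its cortisol difference was 2.13 ± 0.73 (SE) in the LV and 1.91 ± 0.60 (SE) in the septum, with adjusted p of 0.88 and 0.818 from limma (unadjusted 0.0139 and 0.00828), and its part in the members' differences was not tested.

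HK1 stood at similar levels in both walls, and its mean was higher in the cortisol lambs by an amount that did not pass the test. In the LV, its level was 3.19, 2.85, 2.87, 2.52 and 2.93 in control lambs 1 to 5, and 3.31, 2.76, 3.44, 3.07 and 3.10 in cortisol lambs 1 to 5. In the septum it was 2.86, 2.73, 2.80, 2.37 and 2.90 in the controls and 3.34, 2.98, 3.82, 2.51 and 2.86 in the cortisol lambs. The groups overlapped in both walls. Cortisol 3 was highest in both, and control 4 was lowest in both. The group means, in falling order, were 3.14 ± 0.26 (SD, n = 5) in LV cortisol, 3.10 ± 0.50 (SD, n = 5) in septum cortisol, 2.87 ± 0.24 (SD, n = 5) in LV control and 2.73 ± 0.21 (SD, n = 5) in septum control. Neighbours in this order differed by less than 1 SD.

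The HK1 difference between cortisol and control was 0.26 ± 0.19 (SE) in the LV, with a 95% interval from -0.15 to 0.67. In the septum it was 0.37 ± 0.24 (SE), with an interval from -0.16 to 0.89. Both are log2 differences, and limma's Benjamini-Hochberg adjusted p over all probes tested was 0.88 and 0.818. In each wall, 4 of 5 cortisol lambs lay above the control mean. Without cortisol 3 the septum difference was 0.19. The mean over both walls of a lamb differed by 0.32 ± 0.19 (SE, adjusted p = 0.815 from limma).

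**Figure D1:**
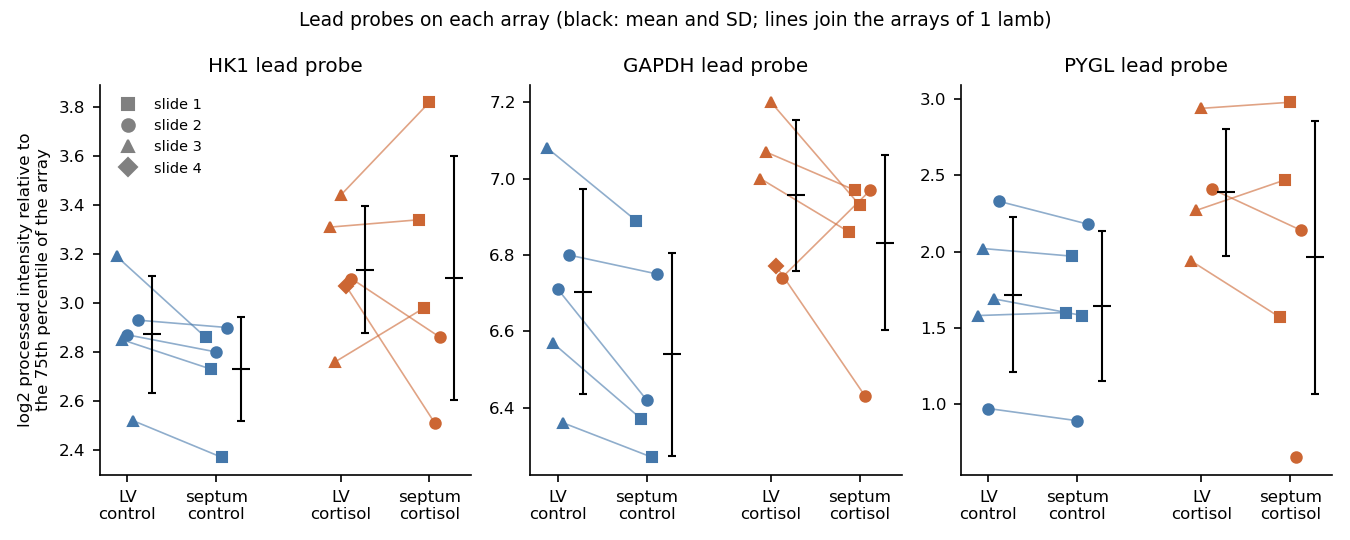
Level of the lead probes of HK1, GAPDH and PYGL on each array (vertical axis, log2 processed intensity relative to the 75th percentile of the array), in LV and septum of control (blue) and cortisol (orange) lambs; lines join the arrays of 1 lamb, symbols give the slide, and black bars are mean and SD. The groups overlap in every panel, HK1 reaches 3.82 in the septum of cortisol 3, and PYGL has no LV value for cortisol 4.

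GAPDH, by its lead probe, was bright on every array, between 6.27 and 7.20, and showed the same pattern. In the LV its level was 7.08, 6.57, 6.71, 6.36 and 6.80 in control lambs 1 to 5, and 7.0, 7.07, 7.20, 6.77 and 6.74 in cortisol lambs 1 to 5. In the septum it was 6.89, 6.37, 6.42, 6.27 and 6.75 in the controls and 6.86, 6.97, 6.93, 6.43 and 6.97 in the cortisol lambs. Control 4 was again the lowest control in both walls and control 1 the highest, and the groups overlapped. The LV difference was 0.25 ± 0.18 (SE), with a 95% interval from -0.15 to 0.66. All 5 cortisol lambs lay above the LV control mean. The septum difference was 0.29 ± 0.18 (SE), with an interval from -0.10 to 0.69, and 4 of 5 cortisol lambs lay above the control mean. The adjusted p from limma was 0.88 and 0.818. The mean over both walls differed by 0.27 ± 0.17 (SE, adjusted p = 0.815 from limma).

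The group means of the lead GAPDH probe, in falling order, were 6.96 ± 0.20 (SD, n = 5) in LV cortisol, 6.83 ± 0.23 (SD, n = 5) in septum cortisol, 6.70 ± 0.27 (SD, n = 5) in LV control and 6.54 ± 0.27 (SD, n = 5) in septum control. Neighbours in this order differed by less than 1 SD. The direction depended on how the arrays were scaled: with quantile normalization the difference was -0.10 in the LV and -0.03 for the mean of both walls, and in the authors' deposited value table the septum difference was -0.04.

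The lead GAPDH level was also lower on brighter arrays. Over the 10 LV arrays it correlated with log2 of the 75th percentile at r = -0.69 (permutation p = 0.0288, adjusted p = 0.0864 over 6 relations) and rho = -0.65 (permutation p = 0.0486, adjusted p = 0.262). Without the 2 arrays farthest from the median brightness, r was -0.85. In the septum r was -0.51 (permutation p = 0.149, adjusted p = 0.298), rho was -0.35 (permutation p = 0.33, adjusted p = 0.495), and r was -0.37 without the 2 farthest arrays. The level is itself a value minus that percentile, so a negative relation is partly built in; the median r over all probes tested was -0.02 in the LV and -0.07 in the septum.

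The median 75th percentile was 192 intensity units in LV control and 108 in LV cortisol, and 282 and 256 in the septum. The groups overlapped: log2 of the percentile averaged 7.44 ± 0.59 (SD, n = 5) in LV control and 7.35 ± 0.95 (SD, n = 5) in LV cortisol, and 8.28 ± 0.30 (SD, n = 5) and 7.83 ± 0.44 (SD, n = 5) in the septum. The part of brightness in the GAPDH difference was not tested. For HK1 the same relation had r = -0.39 and rho = -0.45 in the LV (permutation p = 0.265 and 0.191, adjusted p = 0.398 and 0.382) and r = -0.78 and rho = -0.58 in the septum (permutation p = 0.0103 and 0.0875, adjusted p = 0.0618 and 0.262). Without the 2 farthest arrays r was -0.71 in the LV and -0.09 in the septum, so that the septum relation rested on those arrays. In the septum they were cortisol 3 and cortisol 1, the dimmest arrays, which also had the highest HK1 levels there, 3.82 and 3.34. The part of brightness in the HK1 difference was not tested either. For PYGL r was 0.05 over 9 LV arrays (exact permutation p = 0.908) and -0.20 in the septum (permutation p = 0.585).

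The 5 GAPDH probes agreed to different degrees. A_70_P016401, which shares nearly all bases with the lead probe, followed it over the 20 arrays with r = 0.95 (Spearman rho = 0.94), as a description over arrays that come in pairs from 10 lambs. The opposite-strand probes A_70_P041486 and A_70_P041487 followed the lead probe at r = 0.77 and 0.81, and each other at r = 0.94. A_70_P024456 followed the lead probe at r = 0.70, and at r = 0.87 without the LV array of cortisol 4.

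On that array, the only one on slide 4, the GAPDH probes differed. A_70_P024456 stood there at 7.60, its highest value, against 6.01 to 7.02 on the other LV arrays. A_70_P041486 stood at 0.13, its lowest value. The lead probe, at 6.77, and A_70_P016401, at 6.67, lay in the middle of their ranges. In the septum of the same lamb A_70_P024456 stood at 6.16 and A_70_P041486 at 0.15.

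**Figure D2:**
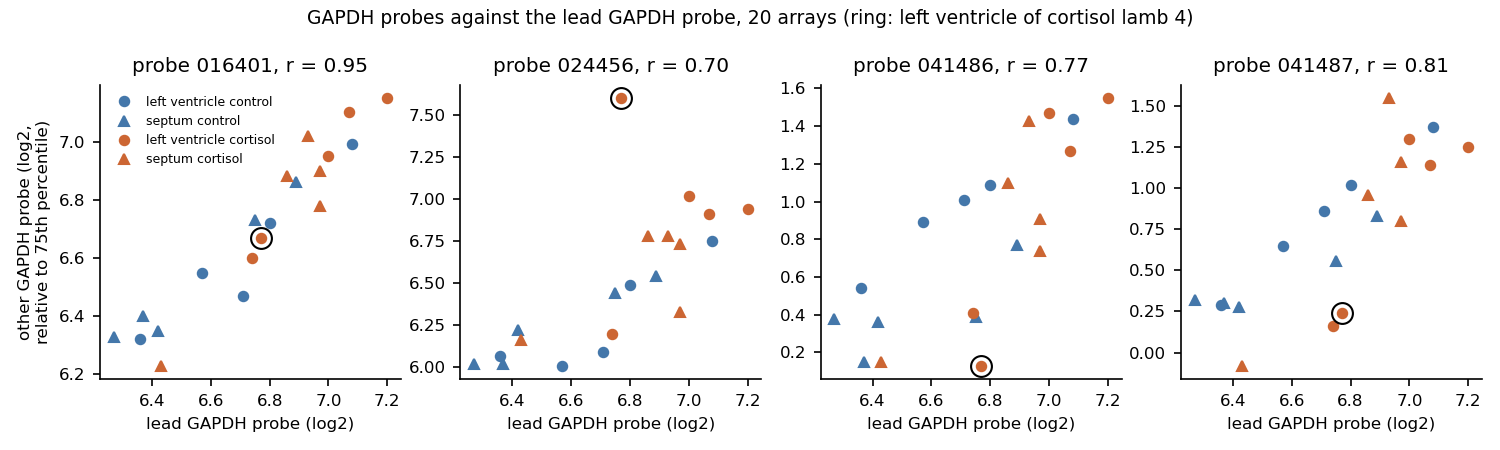
Level of each of the 4 other GAPDH probes (vertical axis) against the lead GAPDH probe (horizontal axis), both in log2 relative to the 75th percentile, on 20 arrays, with a ring around the LV array of cortisol 4. The ringed array lies on the trend for A_70_P016401 and far above it for A_70_P024456, where r is 0.70 with it and 0.87 without it.

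The cortisol difference varied with the probe chosen for GAPDH. In the LV it was 0.29 ± 0.19 (SE) by A_70_P016401 and 0.65 ± 0.26 (SE) by A_70_P024456. By the opposite-strand probes it was -0.03 ± 0.30 (SE) for A_70_P041486 and -0.02 ± 0.29 (SE) for A_70_P041487. In the septum all 5 probes named GAPDH, the opposite-strand ones included, had a positive difference, from 0.23 (A_70_P016401) to 0.46 (A_70_P041486). None passed in either wall. With slide as a block, which takes up the LV value of cortisol 4, the LV differences of the opposite-strand probes were 0.13 and 0.08. Without cortisol 4 they were 0.18 and 0.13. With each lamb left out in turn they ran from -0.17 to 0.18 and from -0.15 to 0.15.

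PYGL had the largest difference between the groups among the 3 lead probes in the LV, and the widest spread between lambs. In the LV its level was 1.58, 2.02, 0.97, 1.69 and 2.33 in control lambs 1 to 5, and 1.94, 2.27, 2.94 and 2.41 in cortisol lambs 1, 2, 3 and 5. The spot of cortisol 4 had been marked as a non-uniform outlier by the scanner software and was left out. In the septum the level was 1.60, 1.97, 0.89, 1.58 and 2.18 in the controls and 1.57, 2.47, 2.98, 0.65 and 2.14 in the cortisol lambs. Cortisol 3 was highest and control 3 lowest among the LV arrays, and cortisol 4 was lowest in the septum. The groups overlapped in both walls.

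The PYGL difference was 0.68 ± 0.30 (SE) in the LV, on 9 arrays, with a 95% interval from 0.01 to 1.34 and an unadjusted p of 0.0466. All 4 measured cortisol lambs lay above the control mean, but the adjusted p from limma was 0.88. In the septum the difference was 0.32 ± 0.41 (SE), with an interval from -0.58 to 1.21, and 3 of 5 cortisol lambs lay above the control mean (adjusted p = 0.852 from limma). The mean over both walls differed by 0.66 ± 0.30 (SE, 9 lambs, adjusted p = 0.815 from limma), cortisol 4 having no such mean.

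The PYGL difference changed in size with the arrays of cortisol 4 and cortisol 3. With the outlier spot kept, its level was -0.65 and the LV difference was 0.07 ± 0.58 (SE). In the authors' deposited value table, where that array has a value for the probe, the LV difference was -0.02. Without cortisol 4 the septum difference was 0.65, and without cortisol 3 it was 0.06. The group means, in falling order, were 2.39 ± 0.42 (SD, n = 4) in LV cortisol, 1.96 ± 0.89 (SD, n = 5) in septum cortisol, 1.72 ± 0.51 (SD, n = 5) in LV control and 1.65 ± 0.49 (SD, n = 5) in septum control. The step from LV cortisol to septum cortisol, 0.43 lower, was about the SD of the former and less than that of the latter, and the other neighbours differed by less than 1 SD.

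The second PYGL probe, A_70_P030422, was dim but had a higher mean in the cortisol lambs too. In the LV it was at -3.76, -3.15, -4.21, -3.37 and -2.12 in the controls and at -3.20, -2.22, -2.35, -1.50 and -2.39 in the cortisol lambs. In the septum it was at -3.46, -3.56, -3.60, -3.92 and -3.35 in the controls and at -3.30, -2.69, -2.85, -3.57 and -3.47 in the cortisol lambs. The groups overlapped, and cortisol 4 was the highest LV array by this probe. The difference was 0.99 ± 0.40 (SE) in the LV and 0.40 ± 0.21 (SE) in the septum, with 5 of 5 cortisol lambs above the control mean in each wall. In the septum, though, cortisol 4 at -3.57 was practically level with the control mean of -3.58. For the mean of both walls it was 0.70 ± 0.24 (SE), with an unadjusted p of 0.0137 and an adjusted p of 0.815 from limma. The 2 PYGL probes followed each other over 19 arrays at r = 0.74 (rho = 0.81). The array left out was the LV of cortisol 4, where the probes went opposite ways. The marked lead spot stood there at -0.65, below all its other values, and A_70_P030422 at -1.50, its highest. After normexp background correction r was -0.39 over the 19 arrays. That correction added an offset of 50 intensity units, and A_70_P030422 itself ranged from 6.92 to 142 units.

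PYGL carries the name of the liver form, and of 5 liver markers SERPINA1 was above background on 0 arrays, TTR on 1, ALB on 2, AHSG on 5 and APOA1 on all 20. APOA1, an apolipoprotein and the one liver marker bright enough to test, differed between cortisol and control by 0.68 ± 0.30 (SE) in the LV and 0.75 ± 0.20 (SE) in the septum. Its unadjusted p was 0.0459 and 0.00377 and its adjusted p from limma 0.88 and 0.818, and its part in the PYGL difference was not tested. As a mean log2 level, the list of 5 ranged from -5.12 to -4.44 in LV control and from -5.30 to -4.13 in LV cortisol. In the septum it ranged from -6.03 to -4.84 in the controls and from -5.33 to -4.28 in the cortisol lambs. Of the monocyte and macrophage markers, CD14 and TYROBP were above background on 20 arrays, LYZ on 16 and ITGAM on 0, and the 3 tested had positive cortisol differences in each wall, from 0.14 to 0.59, none of which passed. Their list mean lay between -3.99 and -2.73 in LV control and between -3.82 and -2.46 in LV cortisol. In the septum it lay between -4.29 and -3.15 in the controls and between -3.78 and -3.03 in the cortisol lambs. Of the neutrophil markers, BAC5 was above background on 17 arrays, CATHL3 on 14, SC5 on 7 and CXCR1 on 0, and the 2 tested had negative differences in each wall, from -0.61 to -0.20, which did not pass. The list of fibroblast and matrix genes had a median of 0.78 in LV control and 1.73 in LV cortisol, and of 0.21 and 0.77 in the septum. It lay between 0.57 and 1.05 in LV control and between -0.01 and 2.04 in LV cortisol, and the part of these cell types in the differences above was not tested. In whole-wall RNA, fewer cells of a type and less RNA per cell cannot be told apart.

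Across the array, limma called 0 of 9791 probes (0%) in the LV and 0 of 10369 (0%) in the septum for cortisol against control, and 0 of 10069 (0%) for the mean of both walls. The numbers with an unadjusted p under 0.05 were 505, 384 and 519. None of the 8 member probes was called in any of the 3 comparisons. The median difference over all probes tested was -0.01, 0.03 and 0.01 in that order.

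**Figure D3:**
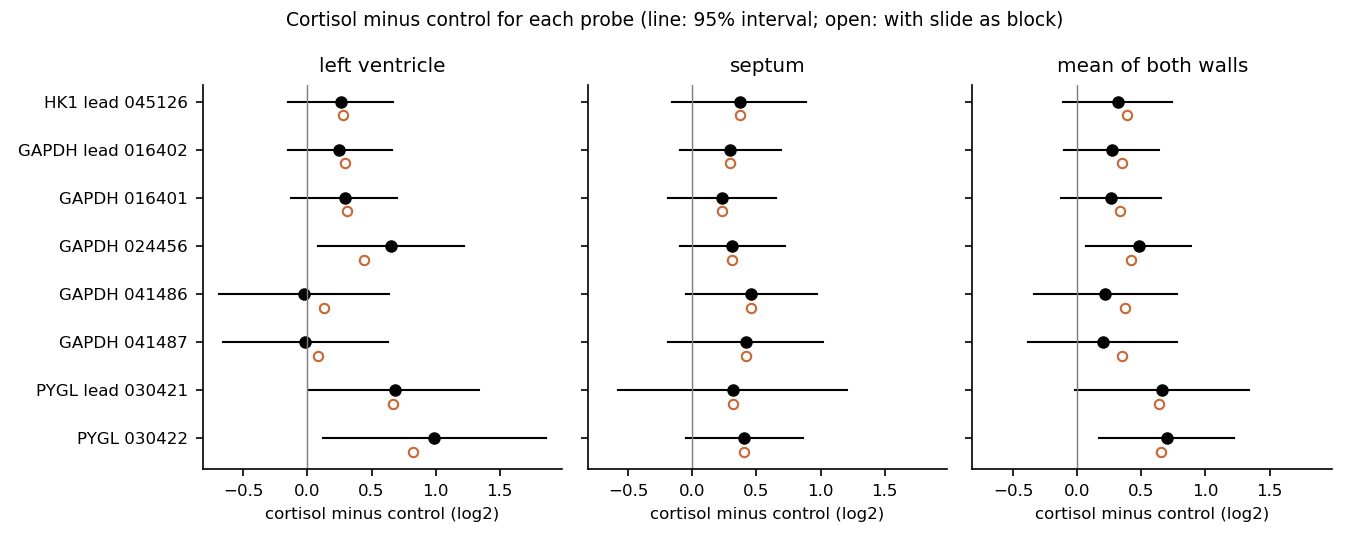
Difference between cortisol and control (horizontal axis, log2) for the 8 probes in the LV, the septum and the mean of both walls, with 95% intervals (filled), and the estimate with slide as a block (open). Of 24 estimates 22 lie above 0, the exceptions being the opposite-strand GAPDH probes in the LV. These move to 0.13 and 0.08 with the block, which takes up the LV value of cortisol 4.

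With the slide as a block, the differences of the lead probes were close to those without it. In the LV they were 0.28 for HK1, 0.29 for GAPDH and 0.67 for PYGL, and in the septum 0.37, 0.29 and 0.32. For the mean of both walls, with the pair of slides that a lamb's arrays lay on as the block, they were 0.39 (HK1), 0.35 (GAPDH) and 0.64 (PYGL). The lowest adjusted p among these 9 estimates was 0.53, from limma. No member was called, and neither was any other probe. Because slide 4 holds only the LV array of cortisol 4, the block takes up that value. The blocked estimates in the LV and for the mean of both walls therefore draw on the other lambs only.

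The slides differed among themselves. Within slide 3, with 3 control and 3 cortisol LV arrays, the differences were 0.31 for HK1, 0.42 for GAPDH and 0.62 for PYGL. Within slide 1, with 3 and 3 septum arrays, they were 0.73, 0.41 and 0.62. Within slide 2 they were 0.20, -0.01 and 0.77 in the LV (2 controls, 1 cortisol) and -0.17, 0.12 and -0.14 in the septum (2 and 2). The lambs on slide 2 are other lambs than those on slides 1 and 3, so slide and lamb cannot be told apart here. For the mean of both walls, the differences were 0.52, 0.42 and 0.62 for the lambs of slides 1 and 3, and 0.10, 0.19 and 0.69 for the lambs with both arrays on slide 2 (2 controls, 1 cortisol).

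**Figure D4:**
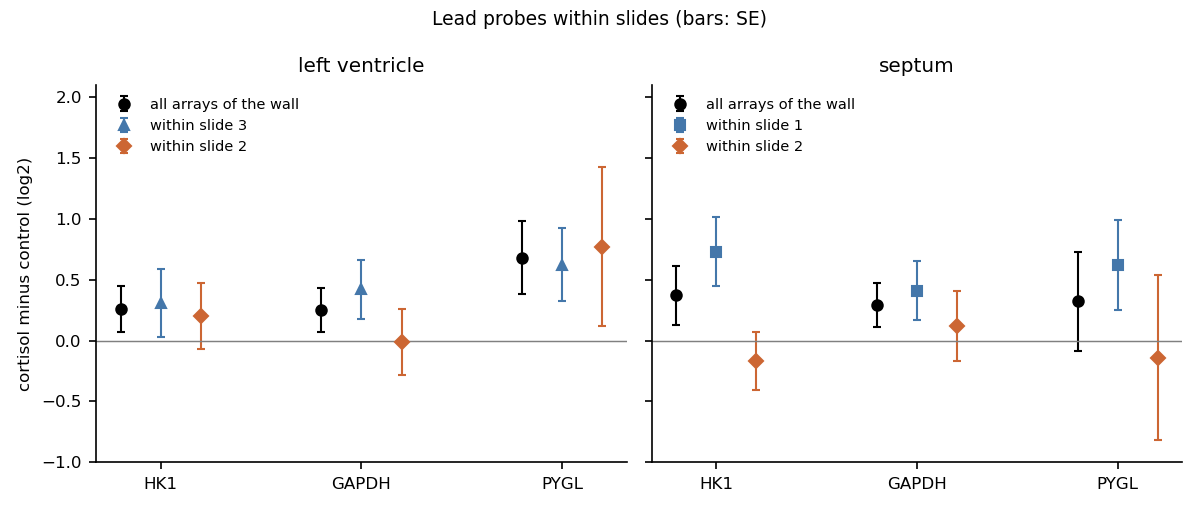
Difference between cortisol and control (vertical axis, log2, bars are SE) for the lead probes, over all arrays of a wall and within each slide that holds both treatments. Within slides 1 and 3 the 3 genes lie between 0.31 and 0.73, and within slide 2 they lie between -0.17 and 0.77.

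The walls of a lamb were close for the lead probes. The septum was below the LV for GAPDH in 9 of 10 lambs, by 0.15 ± 0.16 (SD of the 10 lamb differences) on average, the exception being cortisol 5. By the other GAPDH probes it was below in 6 to 8 of 10 lambs. Septum arrays were brighter on average, and the part of brightness in this difference was not tested. For PYGL the septum minus LV difference averaged -0.08 ± 0.17 (SD, 9 lambs), while the lambs' own means ran from 0.93 to 2.96. For HK1 it averaged -0.09 ± 0.27 (SD, 10 lambs), with lamb means from 2.45 to 3.63. The spread of the lead PYGL probe was thus mostly between lambs, in the 9 lambs with both values, cortisol 4 being left out. This did not hold for the dim second probe, A_70_P030422. Its septum minus LV difference averaged -0.55 ± 0.77 (SD, 10 lambs), against an SD of lamb means of 0.44 in controls and 0.33 in cortisol lambs.

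Without regard to the lamb, the septum minus LV difference was -0.15 ± 0.12 (SE) for GAPDH, -0.09 ± 0.15 (SE) for HK1 and -0.25 ± 0.27 (SE, 19 arrays) for PYGL, with adjusted p of 0.696, 0.886 and 0.783 from limma. With the lamb as a block the values were -0.15, -0.09 and -0.09, with adjusted p of 0.143, 0.518 and 0.433. Over the array limma called 55 of 10069 probes (0.546%) without the block and 1772 (17.6%) with it, and 0 with slide added to the lamb. The count of 55 ran from 5 without control 2 to 313 without cortisol 5. Most LV and septum arrays lay on different slides, so region and slide are largely confounded.

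One of the 5 probes named GAPDH passed with the lamb as a block. It lies on the strand opposite to the lead probe, and whether it measures GAPDH messenger RNA was not tested. A_70_P041486, on the opposite strand, was lower in the septum of all 5 control lambs, by 0.16 to 0.74. Its difference in control lambs was -0.58 ± 0.28 (SE), with an adjusted p of 0.621 without the block and 0.0212 with it (limma). In that blocked comparison 791 probes (7.86%) were called. Averaged over treatments it was -0.34, with adjusted p of 0.502 without the block and 0.0225 with it. With slide added to the lamb, the control difference was -0.50 (adjusted p = 0.157, limma). In the cortisol lambs its difference was -0.10, and the cortisol effect in the septum minus that in the LV was 0.48 ± 0.39 (SE, adjusted p = 1, limma; 0.997 with the lamb as a block). Its overlapping neighbour A_70_P041487 differed by -0.38 in control lambs (adjusted p = 0.139 with the block, limma) and was not called. The lead probe, A_70_P016401 and A_70_P024456 differed by -0.16, -0.07 and -0.04 in control lambs, and were not called with or without the block.

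None of the members' cortisol differences was shown to differ between the walls. The septum difference minus the LV difference was 0.11 ± 0.30 (SE) for HK1, 0.04 ± 0.24 (SE) for GAPDH and -0.36 ± 0.54 (SE) for PYGL, with an adjusted p of 1 each from limma. Over the array 0 of 10069 probes (0%) were called, with 38 at an unadjusted p under 0.05. These fits took no account of the lamb. With the lamb as a block limma again called 0 probes. Over all alternatives the lowest adjusted p from limma was 0.72 for HK1, 0.839 for GAPDH and 0.942 for PYGL. In control lambs alone, without the block, limma called 4 probes (0.0397%) between the walls, and no member was among the 4. In cortisol lambs it called 0 (0%), with 388 at an unadjusted p under 0.05. With the lamb as a block it called 791 (7.86%) in control lambs, A_70_P041486 among them, and 127 (1.26%) in cortisol lambs.

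Other genes of glucose use did not pass the test either. Of 113 genes on the lists of glucose uptake, glycolysis, lactate and pyruvate, glycogen, gluconeogenesis, the pentose phosphate pathway and upstream regulators, 34 had a named probe and 30, the 3 members included, were tested for the mean of both walls. Without the members, 18 of 27 had a positive and 9 a negative difference, with a median of 0.14, and 0 passed in either direction. Among all probes tested, 51.9% had a positive difference. In the LV 16 of 27 and in the septum 21 of 28 were positive without the members, against 48.7% and 54.7% of all probes, and 0 passed in either wall (limma).

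Among genes of uptake and phosphorylation other than HK1, 3 of 4 were positive for the mean of both walls. SLC2A1, the basal glucose transporter, differed by 0.61 ± 0.59 (SE), and SLC2A4, the insulin-responsive one, by 0.06 ± 0.23 (SE). SLC2A8, another glucose transporter, had a difference of -0.40 ± 0.22 (SE) in the septum (adjusted p = 0.818, limma). Glycolytic enzymes other than GAPDH were positive for 4 of 5. ENO3, the muscle enolase, differed by 0.19 ± 0.13 (SE), ALDOA, the muscle aldolase, by 0.20 ± 0.18 (SE), and PFKM, the muscle phosphofructokinase, by -0.11 ± 0.19 (SE). LDHA, a lactate dehydrogenase subunit, differed by 0.27 ± 0.29 (SE).

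On the glycogen list 3 of 4 genes other than PYGL were positive. Of the other phosphorylases, PYGM, the muscle form, differed by 0.14 ± 0.18 (SE) and PYGB, the brain form, by 0.15 ± 0.22 (SE). The main PYGL estimate was higher, at 0.66 ± 0.30 (SE), but came from 9 lambs without cortisol 4. Over the alternatives it ran from 0.19 to 0.86, and whether the 3 forms differ was not tested. PHKG2, a catalytic subunit of the kinase that activates phosphorylase, had a difference of -0.31 ± 0.24 (SE) in the LV (adjusted p = 0.88, limma). On the pentose phosphate list PGD, an enzyme of its oxidative branch, had a difference of -0.07 ± 0.13 (SE) and TALDO1, the transaldolase, of -0.03 ± 0.15 (SE) for the mean of both walls. The gluconeogenic genes PCK1, FBP2 and G6PC1 were too dim to be tested in the mean of both walls.

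Of the upstream regulators 6 of 9 were positive. HIF1A, the oxygen-sensitive factor that drives glycolytic genes, differed by 0.83 ± 0.40 (SE) for the mean of both walls and by 0.87 ± 0.47 (SE) in the LV, the highest estimates on the lists there, and by 0.79 ± 0.40 (SE) in the septum. NR3C1, the glucocorticoid receptor, differed by 0.66 ± 0.28 (SE) in the LV and by 0.48 ± 0.29 (SE) for the mean of both walls. ADRB1, the cardiac beta-1 adrenergic receptor, differed by 0.86 ± 0.52 (SE) in the septum. The adjusted p from limma was at least 0.815 for each of them.

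**Figure D5:**
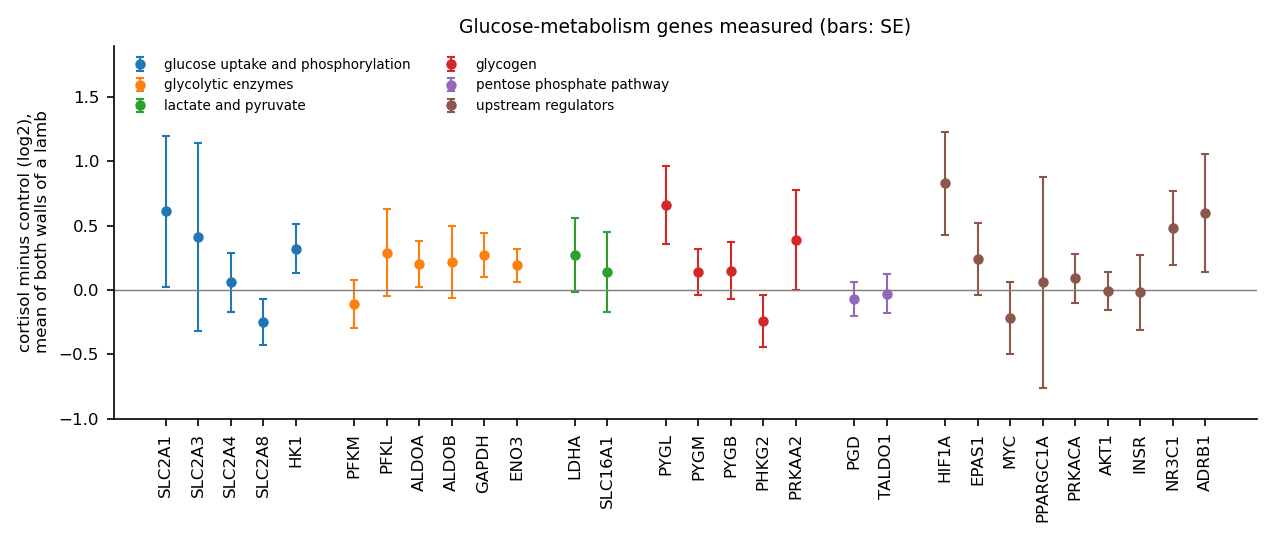
Difference between cortisol and control (vertical axis, log2, mean of both walls of a lamb, bars are SE) for glucose-metabolism and regulator genes tested, coloured by list. PGD and TALDO1 lie at -0.07 and -0.03, and HIF1A (0.83), PYGL (0.66) and SLC2A1 (0.61) have the highest estimates.

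The 3 lead probes varied together across arrays. HK1 and GAPDH had r = 0.69 over 20 arrays, GAPDH and PYGL r = 0.55 over 19, and HK1 and PYGL r = 0.57 over 19, as descriptions over 10 lambs that share the scaling of each array. Among 543 named genes measured, those most like HK1 were VEGFA (r = 0.93), FTH1 (0.84), TPT1 (0.84), RPL6 (0.82) and PPP1R12A (0.80), of which FTH1, TPT1 and RPL6 had values on 16 to 18 arrays and the others on 20. Those most like GAPDH were NUS1 (r = 0.84), YWHAH (0.83), MYH7 (0.83), CKB (0.82) and LEP (0.81), over 19 or 20 arrays. Those most like PYGL were PSMA6 (r = 0.80), CAST (0.80), UBB (0.77), SMAD7 (0.77) and FBXO32 (0.77), over 19 arrays except UBB with 13. The median r over the 543 genes was 0.23 for HK1 and for GAPDH and 0.20 for PYGL.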

How the data were processed

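Total RNA of 20 samples (100 ng each) was labelled with Cy3 and hybridised to sheep oligonucleotide arrays, per the labels' protocols. Agilent Feature Extraction 10.1.1.1 made the processed intensity by background subtraction and detrending, per the file headers, and it was not normalized between arrays. For 10373 probes the authors also deposited a value table on a log2 scale, with column medians of 6.71 to 6.72 in the LV and 9.49 to 9.54 in the septum and with empty septum cells; its normalization is not given in the sources used here, though limma is listed, with no version, per the submitters' processing notes. It served as an alternative within each wall.

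Values were log2 intensity minus each array's 75th percentile, without outlier spots (2 to 68 per array). A probe was tested if well above background on 5 of the 10 arrays of a wall, or on 10 of 20. Tests used limma 3.58.1 in R 4.3.3 (statmod 1.5.0), two-sided, and a probe was called where p, adjusted by the Benjamini-Hochberg method across every probe in the fit, was under 0.05; the fits were tested on simulated data. Names and figures came from Python 3.11.15 and matplotlib 3.10.9, and symbols follow RefSeq (ARS-UI_Ramb_v3.0). The number of arrays limits the precision. The labels do not say whether replicates were processed on separate days, so p-values for cortisol against control measure the spread between these lambs. Those that compare the walls, or the cortisol effect between walls, treat the 20 arrays as independent unless the lamb is a block. With that block they rest on the spread of the wall differences of the lambs.

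Residuals from the group means correlated at 0.447 to 0.813 between the LV and septum arrays that share a treatment and a replicate number, each being highest with its own partner in 10 of 10, and such a pair was taken as 1 lamb. Member genes, lists and comparisons were chosen with earlier results of these data known. Named were all member probes, list genes that passed or, in each cortisol comparison, the 3 with the smallest unadjusted p, and the 5 genes most like each member; SLC2A1, SLC2A4, ALDOA, PFKM, LDHA, PYGM, PYGB, PGD, TALDO1, the named markers and the gluconeogenic genes were added after their values were seen. The other list genes are counted but not named in the text, and 1 gene is not reported here.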

Additional observations from a re-analysis of the deposited data

Results flagged for a closer look

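In the lead GAPDH probe the septum array of cortisol 4 stood at 6.43, apart from the other 4 septum cortisol arrays at 6.86 to 6.97; its gap to the nearest was 0.8 of the group's range, above the critical value of 0.71. The probe's septum difference was 0.39 without that lamb. A total of 31 groups of 5 arrays were examined for the 8 probes and 1 stood out, where chance flags about 1 in 20.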

How the results depend on the processing

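All 70 results were recomputed under the alternatives, giving 1464 values, of which 1366 were classed as the same. For a difference this meant the same direction and side of the threshold, and for a count or a correlation a value of similar size. Where a value changed, the cause was not tested. For the lead probes, the cortisol difference was positive in 212 of 219 such values, from -0.17 to 0.86, and passed in 0 (lowest adjusted p 0.282, limma). Being refits of the same arrays, these values are not independent, and their shared sign adds no evidence for a direction. Numbering pairs control and cortisol lambs in no stated way, and same-number correlations passed 0.1 in 4 of 5 (LV) and 3 of 5 (septum), so the replicate block stands only here: it gave 0.26, 0.37 and 0.32 for HK1, 0.25, 0.29 and 0.27 for GAPDH and 0.67, 0.32 and 0.65 for PYGL (LV, septum, mean of both walls), and called 0 probes. Signal near background limits A_70_P030422.

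With quantile normalization GAPDH was -0.10 (lead) and -0.05 (A_70_P016401) in the LV, -0.02 (A_70_P016401) in the septum, and -0.03 for both probes over both walls. In the deposited table PYGL was -0.02 in the LV, and in the septum GAPDH was -0.04 (lead) and -0.05 (A_70_P024456). In the LV, A_70_P041486 and A_70_P041487 were 0.13 and 0.08 with slide as a fixed block, 0 and 0 as a random block, and 0.47 and 0.46 within slide 3; leaving out a lamb gave -0.17 to 0.18 and -0.15 to 0.15. Within slide 2 the LV gave -0.01 for GAPDH, -0.09 for A_70_P024456 and 0.05 for PHKG2. There the septum gave -0.17 for HK1, -0.14 for PYGL, -0.04 for A_70_P030422, -0.03 for A_70_P016401, -0.08 for A_70_P024456, -0.06 for A_70_P041487 and -0.13 for HIF1A. Lambs with both arrays on slide 2 gave -0.04, -0.13 and -0.20 for A_70_P024456, A_70_P041486 and A_70_P041487. Within slide 3 limma called 2 probes in the LV, and 16 for the lambs of slides 1 and 3; no member was among them.

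For septum minus LV effect of cortisol, GAPDH was -0.08 with normexp, 0 with the array median and -0.05 to 0.09 without a lamb, and PYGL 0.24 with outlier spots kept. Between the walls of control lambs limma called 1 probe each with quantile normalization, the percentile over detected probes, no filter and outlier spots kept, and 0 each with normexp, slide as a fixed or random block, within slide 2 and without any 1 lamb (0 to 0), against 791 with the lamb as a replicate block and 77 with slide added. In cortisol lambs it called 2, 2, 1 and 1 with quantile normalization, that percentile, detection on every array and trend with robust moderation, 127 with the lamb block and 0 to 8 without a lamb. Over both treatments it called 1 with normexp, 118 with no filter, 0 with slide fixed, 2 with slide random, 0 within slide 2, 1772 with the lamb block, 0 with slide added and 5 to 313 without a lamb.

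For the same wall difference A_70_P041486 passed with the lamb block in control lambs (-0.58) and over both treatments (-0.34). In control lambs A_70_P024456 was 0.02 with slide fixed, 0.04 within slide 2, 0.08 with lamb and slide and -0.08 to 0.01 without a lamb, and A_70_P016401 0.01 with lamb and slide. In cortisol lambs PYGL was 0.19 with outlier spots kept, and with lamb and slide GAPDH was 0.04 and HK1 0.03; HK1 was -0.14 to 0.10 without a lamb. Over both treatments PYGL was 0.07 with outlier spots kept, A_70_P024456 0.04 within slide 2 and 0.06 with lamb and slide, and A_70_P016401 0.03 with lamb and slide. With normexp the agreement with the lead GAPDH probe was r = 0.91 for A_70_P024456 and 0.56 for A_70_P041487, and that of the PYGL probes r = -0.39.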
